A study of Mus musculus with 2 samples.

Results

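Type 17 T cells of the dermis were taken from 2 single-cell libraries of mouse dorsal skin, 1 from wild-type (WT) and 1 from Chrna5 knockout mice. A cell belonged to the group when it carried at least 1 UMI (a counted RNA molecule) of Cd3e, Cd3d or Cd3g, kept Krt5 and Krt14 together under 1% of its UMIs, and held at least 1 UMI of Cd163l1 or at least 2 of Il17a. Barcodes under 500 UMIs or 300 genes, or with more than 20% mitochondrial UMIs, had been left out. The cells were thus selected on their UMIs of these genes. The rule found 142 of 19468 kept cells. The WT library gave 107 of 10160 and the knockout library 35 of 9308. Since measured values chose the cells, the levels of Cd163l1, Il17a and the CD3 genes describe the choice and support nothing further.

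Per the labels, the mice of both libraries were C57BL/6 and received the vaseline cream base as the control for imiquimod, and were sampled on day 7. The protocols give female mice aged 6 to 8 weeks, and 6 days of cream for the imiquimod mice, without a separate schedule for the base. The knockout line was backcrossed to C57BL/6N and bred through heterozygotes, while the extraction protocol names C57BL/6J and speaks of imiquimod-treated skin. The sample labels and the design name vaseline for both libraries. After collagenase digestion, a SytoxBlue-negative sort took live cells of every kind, with no gate on T cells named. How many mice were pooled per library, and which stretch of Chrna5 is missing, the sources used here do not say. With 1 library per genotype no test across animals was possible, and every interval is a 95% interval for counting error only.

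Type 17 gamma-delta T cells leave the thymus already committed to IL-17 and settle in the dermis, where IL-23 and IL-1 from myeloid cells make them release IL-17A and IL-17F onto keratinocytes. Those with the V gamma 6 chain pair it with the delta chain encoded by Trdv4 and carry the scavenger receptor Cd163l1 (Scart1), while the V gamma 4 cells carry the related receptor 5830411N06Rik (Scart2). The epidermis holds a separate resident population, the dendritic epidermal T cells, whose V gamma 5 receptor uses the same Trdv4 chain and which express Fcer1g, Xcl1, Nkg7, Klrd1 and Cd7.

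The genes of the rule and of the cytokine pathway lie as follows in GENCODE vM21 (GRCm38, the mm10 build of the files), matched by Ensembl identifier. Cd163l1 (ENSMUSG00000025461) is a protein-coding gene at chr7:140218267-140231145, and its relative 5830411N06Rik (ENSMUSG00000054672) follows at chr7:140247284-140300736, both on the plus strand. Il17a (ENSMUSG00000025929) spans chr1:20730905-20734496 on the plus strand and Il17f (ENSMUSG00000041872) chr1:20777146-20790617 on the minus strand. Fcer1g (ENSMUSG00000058715), which divided the cells below, is at chr1:171229572-171234365.

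The 250 bases before the RefSeq start sites (GRCm38.p6) of Il17a, Il17f, Il23r and Cd163l1 are shown because the rule or the type 17 program turns on them. The RefSeq start of Il17f, chr1:20784270, lies inside the GENCODE span given above, and so does its window. Capitals mark the nuclear receptor core motif AGGTCA or its reverse TGACCT on the opposite strand.
Il17a (chr1:20730655-20730904, plus strand): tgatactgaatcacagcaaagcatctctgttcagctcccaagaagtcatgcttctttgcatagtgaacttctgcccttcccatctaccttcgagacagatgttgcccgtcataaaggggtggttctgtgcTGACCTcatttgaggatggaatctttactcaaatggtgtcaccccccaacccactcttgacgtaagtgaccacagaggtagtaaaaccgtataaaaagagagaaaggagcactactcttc
Il17f (chr1:20784271-20784520, minus strand): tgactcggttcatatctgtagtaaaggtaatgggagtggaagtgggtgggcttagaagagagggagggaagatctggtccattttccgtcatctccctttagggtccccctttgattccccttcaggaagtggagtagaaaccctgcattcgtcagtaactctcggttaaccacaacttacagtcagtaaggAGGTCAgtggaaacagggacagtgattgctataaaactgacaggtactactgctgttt
Il23r (chr6:67491856-67492105, minus strand): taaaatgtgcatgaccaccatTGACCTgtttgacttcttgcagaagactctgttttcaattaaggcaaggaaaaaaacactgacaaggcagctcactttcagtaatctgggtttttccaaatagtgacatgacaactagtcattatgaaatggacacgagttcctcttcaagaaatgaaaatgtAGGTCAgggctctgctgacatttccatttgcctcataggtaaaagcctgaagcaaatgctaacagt
Cd163l1 (chr7:140218017-140218266, plus strand): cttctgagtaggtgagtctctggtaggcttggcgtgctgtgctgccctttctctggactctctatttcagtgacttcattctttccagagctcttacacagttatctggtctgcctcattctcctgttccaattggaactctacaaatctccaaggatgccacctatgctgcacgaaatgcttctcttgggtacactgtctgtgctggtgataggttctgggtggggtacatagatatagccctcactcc
Il17a had 1 match, 120 bases before the start, and Il17f had 1, 58 bases before it. Il23r had 2, at 229 and 66 bases. Cd163l1 had 0, as did the windows of Gzmb and Cxcr6, which were searched in the same way. Over all 32817 windows of this length, 14.0% held the motif on either strand. A match describes letters in a window and says nothing about binding.

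Median depths of the members were close to those of the T cells around them. The median member held 3187 UMIs in the WT and 3280 in the knockout library. Other CD3-gated cells with Trdc but no Trac (the Trdc gate, 358 and 380 cells) had medians of 2801 and 2965, and those with Trac but no Trdc (the Trac gate, 77 and 61 cells) 3028 and 3202. CD3-gated cells in none of these groups had medians of 3591 and 3455. The libraries shared 34 barcodes, of which 0 were members. Chrna5 had 13 UMIs in all kept WT cells and 3 in all kept knockout cells. It had 0 UMIs in the members of either library, which allows up to 2.80% of WT and 8.57% of knockout members to carry one. At this depth the targeted gene could not be checked within the members, and a 3-prime tag outside the deleted part would check nothing.

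Type 17 cells made up a smaller share of CD3-gated cells in the knockout library. The WT library had 107 members among 744 CD3-gated cells, 14.4% (11.9 to 17.1, exact Clopper-Pearson), and the knockout library 35 among 689, 5.08% (3.56 to 6.99). The ratio of the shares was 0.353 (0.234 to 0.522). The CD3 gate itself held 7.32% of kept cells in the WT and 7.40% in the knockout library, so the lower share was not matched by a lower share of T cells. As the mice per library are not known, the spread between animals cannot be set beside this difference.

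Cells near the thresholds were a larger part of the knockout group. Exactly 1 UMI of Cd163l1 was present in 29 WT and 16 knockout members, and 65 and 12 had 2 or more. Exactly 2 UMIs of Il17a, the other edge, were present in 4 members of each library. Just outside, 7 WT and 3 knockout CD3-gated cells had 1 UMI of Il17a and none of Cd163l1. By route, 54 WT members entered on Cd163l1 alone, 40 on both genes and 13 on Il17a alone; the knockout counts were 20, 8 and 7. In keratinocyte-rich barcodes, which should lack the gene, Cd163l1 appeared in 0.247% of WT and 0.182% of knockout barcodes, at median depths of 15083 and 14533 UMIs. Il17a was less alike there, with at least 1 UMI in 0.461% of WT and 0.0661% of knockout barcodes. Its ratio was 0.144 (0.0366 to 0.410).

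Several type 17 genes that the rule did not use were found in fewer CD3-gated cells of the knockout library, many of these cells being members. Blk, a Src-family kinase needed for IL-17-producing gamma-delta cells, was detected in 57 of 744 WT cells (7.66%) and 18 of 689 knockout cells (2.61%), a ratio of 0.341 (0.189 to 0.588). The receptor Il23r appeared in 26 against 9 cells, a ratio of 0.374 (0.154 to 0.823). The chemokine receptor Ccr2 was in 91 against 38 cells, the IL-7 receptor chain Il7r in 135 against 66, the checkpoint receptor Pdcd1 in 45 against 18 and the IL-1 receptor Il1r1 in 65 against 37, and the interval of each of these ratios left out 1. For the regulator Sox13 (22 against 11 cells) and the chemokine receptor Ccr6 (27 against 15), the intervals of 0.236 to 1.16 and 0.297 to 1.17 included 1. So did that of the cytokine Il17f, in 17 against 13 cells, a ratio of 0.826 (0.369 to 1.81).

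By share of cells, Cxcr6, Trdc and Trac did not follow this pattern. Cxcr6, a receptor of tissue-resident lymphocytes, was in 36.0% of CD3-gated cells of both libraries, with a ratio of 0.999 (0.837 to 1.19). Trdc was in 66.3% and 69.4%, and Trac in 18.3% and 19.3%. The genes were chosen with earlier results of these data known, and the cells that carry them overlap with the members. Members were 52 of 57 WT and 12 of 18 knockout Blk cells, and 24 of 26 and 5 of 9 Il23r cells. For Pdcd1 they were 36 of 45 and 11 of 18, and for Ccr2 61 of 91 and 9 of 38. Outside the members, Blk was in 5 WT and 6 knockout cells. The lower counts thus restate the member count in part and are no separate support for it.

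**Figure D1:**
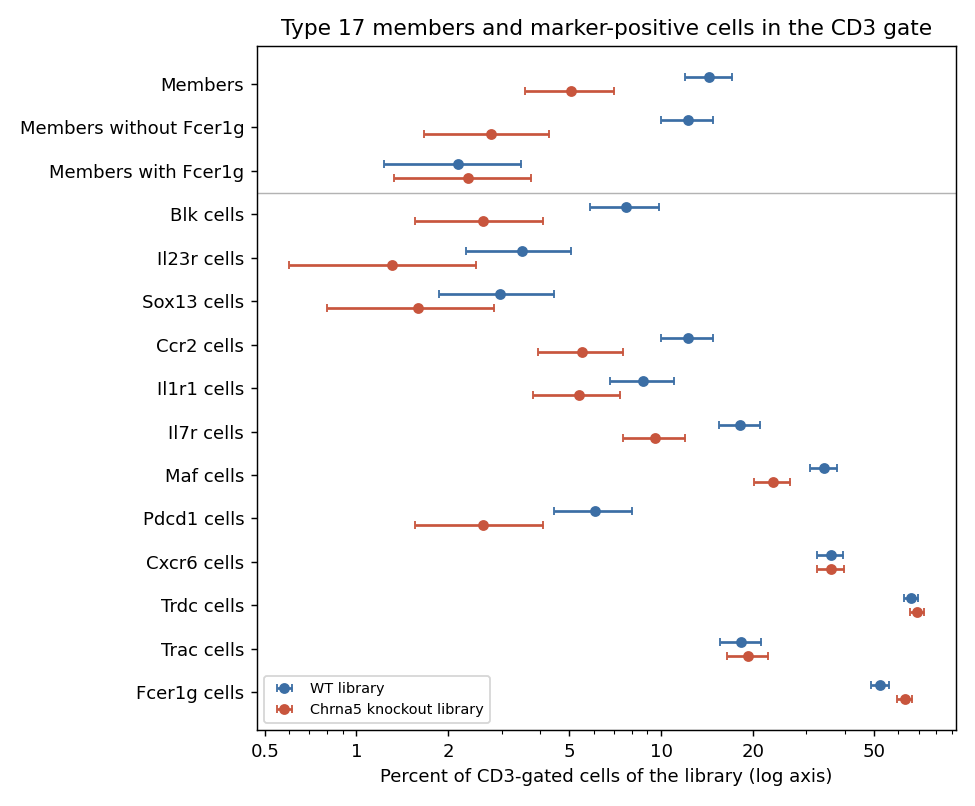
Share of CD3-gated cells in each library (log axis) that are members, or that carry at least 1 UMI of the named gene, with exact 95% counting intervals; blue is WT (744 cells), red is the knockout (689 cells). Members without Fcer1g, Blk cells and Il23r cells lie lower in the knockout library, while members with Fcer1g, Cxcr6, Trdc and Trac cells lie close together.

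Beyond the genes of the rule, the type 17 label held for part of the members. Of the 5 markers, Cd163l1, Il17a and Cd3e belong to the rule; Trdc was detected in 96 of 107 WT and 31 of 35 knockout members, and Cxcr6 in 73 and 18. Blk was in 52 WT and 12 knockout members, Maf, a transcription factor of IL-17-producing cells, in 71 and 19, and Il23r in 24 and 5. Of the markers of conventional alpha-beta cells, Cd4 had UMIs in 2 and 0 members and Cd8a in 1 and 0. The beta constant chains were common, Trbc1 in 59 and 20 members and Trbc2 in 79 and 17, and neither was past the fold against the Trac gate. Trac was present in 20 WT and 5 knockout members, of which 17 and 5 also carried Trdc.

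Fcer1g, the signalling chain that dendritic epidermal T cells express, split the members. It was present in 16 of 107 WT members (15.0%, interval 8.80 to 23.1) and 16 of 35 knockout members (45.7%, 28.8 to 63.4). In these 16 WT and 16 knockout cells, Nkg7 was found in 15 and 16, Cd7 in 15 and 14, Klrd1 in 14 and 13, and Xcl1, a chemokine of cytotoxic lymphocytes, in 10 and 13. Of the type 17 genes, Blk was in 1 and 2, and Il23r and Sox13 were each at 0 in both libraries. Maf was in 5 and 6 of them, Cxcr6 in 5 and 5, and Il17f in 1 and 3. Most had entered on Cd163l1 alone, 14 in each library. Tcrg-V5, the gamma chain of epidermal T cells, had UMIs in 2 WT and 3 knockout members, all of them with Fcer1g. Against the type 17 label, these cells were led by epidermal T cell genes, and they are called members with Fcer1g here. Whether their Cd163l1 came from their own transcripts or from free RNA was not tested.

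Members without Fcer1g carried type 17 genes in both libraries. They numbered 91 in the WT and 19 in the knockout library. Blk was detected in 51 (56.0%) and 10 (52.6%), Maf in 66 (72.5%) and 13 (68.4%), Il7r in 59 (64.8%) and 12 (63.2%), and Il23r in 24 (26.4%) and 5 (26.3%). The shares lay further apart for Ccr2, in 64.8% and 42.1%, Pdcd1, in 38.5% and 52.6%, and Il17f, in 11.0% and 21.1%. At least 2 UMIs of Cd163l1 were present in 64.8% and 36.8%. Some of these cells also carried epidermal T cell genes. Cd7 was in 11 (12.1%) and 6 (31.6%), Nkg7 in 5 (5.49%) and 3 (15.8%), Klrd1 in 2 and 0, and Xcl1 in 0 and 1. Leaving out cells with Fcer1g thus did not remove every cell with such genes.

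**Figure D2:**
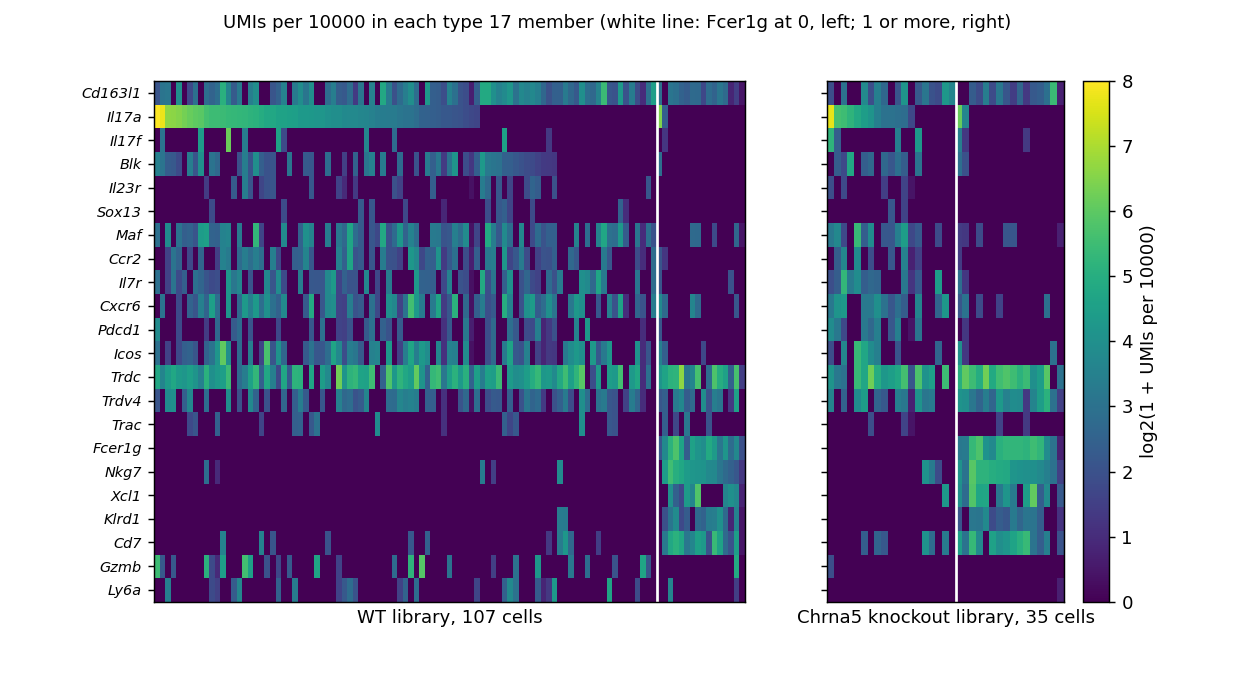
Each column is 1 of the 107 WT or 35 knockout members and each row a gene, coloured by log2(1 + scaled UMIs), where UMIs are scaled to a fixed total per cell; the white line parts members without Fcer1g (left, 91 and 19) from those with it (right, 16 and 16). Blk, Maf, Ccr2, Il7r and Icos are found in a larger share of cells in the left block, though not in all. Fcer1g, Nkg7, Xcl1, Klrd1 and Cd7 are found in a larger share in the right block, in both libraries.

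The difference in share lay with the members without Fcer1g. They were 12.2% (9.96 to 14.8) of WT and 2.76% (1.67 to 4.27) of knockout CD3-gated cells, a ratio of 0.225 (0.130 to 0.373). Members with Fcer1g were 2.15% (1.23 to 3.47) and 2.32% (1.33 to 3.74), a ratio of 1.08 (0.506 to 2.31). The counting intervals of these ratios do not overlap. This division was chosen after the data were seen.

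Trdv4 did not mark 1 kind of member. It was detected in 70 WT and 28 knockout members, of which 12 and 16 carried Fcer1g. Tcrg-V6, the V gamma 6 chain, had UMIs in 10 WT and 2 knockout members, and all of them also carried Trdv4. Tcrg-V4 had 0 UMIs in the members of either library. The Scart2 gene 5830411N06Rik had UMIs in 7 WT members and 0 knockout members. Of these 7, 0 carried Trdv4 and 0 carried Tcrg-V6, while 5 carried Il17a and 4 carried Il17f. They were 7 of the 33 WT members with neither Fcer1g nor Trdv4. In UMIs the gene had 25 in WT and 0 in knockout members, a ratio of at most 0.359 against a floor of 3 UMIs, past the fold and lower. In cells, 0 of 35 allows a share of up to 8.57%, against 6.54% in the WT.

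IL-17A UMIs were unevenly spread over cells, more so in the knockout library. Il17a had UMIs in 61 WT and 15 knockout members, with a median of 5 UMIs among positive cells in each library and a highest cell of 125 and 75. The 5 highest cells held 42.4% of the 747 WT UMIs and 80.9% of the 194 knockout UMIs. As CPM, UMIs scaled to the group's total, the summed level was 1580 in the WT and 1229 in the knockout members, a description only, since Il17a chose cells.

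IL-17F and IL-22, cytokines of the same program, were rarer. Il17f was found in 11 WT and 7 knockout members, of which 9 and 5 also carried Il17a; the top cell alone held 45.5% and 37.1% of its 55 and 35 UMIs. Il22, which acts on the epidermis, was in 3 members of each library, with 75% of the WT and 50% of the knockout UMIs in 1 cell. Its level was 25.4 CPM in WT members against 69.7 in the WT Trdc gate, a ratio of 0.364 (0.181 to 0.671). In the knockout library it was 38.0 against 13.3 CPM, a ratio of 2.86 (0.922 to 7.59). Ifng, encoding interferon gamma, had 1 UMI in WT members and 0 in knockout members.

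Against the Trdc gate, whose cells mostly carry Fcer1g (84.9% of WT and 87.1% of knockout cells), the members differed in a set of genes that held in both libraries. A gene was past the fold when, in both libraries, its CPM ratio was 2 or more in the same direction with a counting interval clear of 1, among genes with at least 20 UMIs over members and gate in each. Of 6546 measured genes, 138 (2.11%) were higher and 197 (3.01%) lower in members. All measured genes together had a median log2 ratio of -0.20 in the WT and -0.14 in the knockout library. Genes of the rule and Trdc and Trac fixed these groups and were not read as results.

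The kinase Blk was at 226 CPM in WT members and 1.68 in the WT Trdc gate, and at 165 and 4.70 in the knockout, ratios of 135 (36.4 to 1127) and 35.1 (14.1 to 104). Ccr2, which steers cells to inflamed tissue, was at 269 against 6.72 CPM in the WT and 114 against 3.13 in the knockout library. Ikzf3, the lymphoid factor Aiolos, was at 300.4 against 6.72 and 196 against 5.48 CPM. Pdcd1 was at 142 against 5.04 and 152 against 2.35 CPM. In all 4 the members of both libraries stood far above the gates, with ratios from 28.1 to 135.

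The remaining leading genes included survival factors. Bcl2a1a, Bcl2a1b and Bcl2a1d, anti-apoptotic relatives of Bcl2 whose near-identical copies can share reads, were 30.2, 35.2 and 17.9 times higher in the WT and 162, 19.0 and 29.3 times higher in the knockout members. Hlf, a transcription factor, was 30.2 and 20.7 times higher, Gmfg, an actin regulator, 23.9 and 38.9 times, and Cpm, a membrane carboxypeptidase, 38.2 and 72.8 times. The gate counts behind these ratios were small, between 1 and 29 UMIs, so the ratios are wide.

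By role, the list of type 17 transcription factors (24 listed, 17 measured) had 7 higher, 1 lower and 9 neither. It also holds the kinase Blk, 1 of the 7, and factors of other T cells such as Foxp3, Tbx21 and Gata3. Rora, a nuclear receptor, was at 874 CPM in WT members against 106 in the gate, and at 520 against 90.8 in the knockout; Maf was at 482 against 89.9 and 310 against 72.8 CPM. Nfkbiz, the cofactor of IL-17 genes, was 3.20 and 2.89 times higher, and Bhlhe40 and Irf4 were higher as well. Tcf7, a factor of less differentiated T cells, was lower, at ratios of 0.397 and 0.479, but its knockout ratio was 1.24 in cells thinned to 1000 UMIs.

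The receptors (33 listed, 17 measured) had 7 higher and 0 lower, with a median log2 ratio of 1.12 in the WT and 0.65 in the knockout library. Il7r was 15.2 and 21.1 times higher, Il1r1 12.0 and 11.7 times, Cxcr4 10.5 and 21.6 times, and Il18r1 3.18 and 3.08 times. Il2ra, the high-affinity IL-2 receptor chain, was 5.00 and 2.05 times higher. Its knockout ratio was 0.882 when only members with at least 1 UMI of Cd163l1, at any Il17a count, were kept. The list holds Cd163l1 of the rule as 1 of its 7.

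Among 36 cytokines and effectors, 21 were measured, 5 were higher and 2 lower. Besides Il17a, these were Il17f (17.3 and 28.3 times higher), the lymphotoxin gene Ltb (6.34 and 2.35), the neutrophil chemokine Cxcl2 (8.02 and 11.6, with 66.7% of the knockout UMIs in 1 cell) and the protease Furin (2.71 and 2.02). Xcl1 and the type 2 cytokine Il13 were lower, Il13 with 1 UMI in the members of each library against 64 and 50 in the gates. In the NF-kB and feedback list, 5 of 17 measured genes were higher (Nfkbia, Nfkbiz, Pim1, Icam1 and Cish) and 0 lower. The costimulator Icos was 11.3 times higher in the WT and 72.8 times in the knockout members.

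All 7 dendritic epidermal T cell genes past the fold were lower in members, of 15 measured, with median log2 ratios of -2.68 and -1.06. Fcer1g was at 235 CPM in WT members against 1840 in the gate and at 1045 against 2302 in the knockout; Nkg7, Cd7, Klrd1, Xcl1, the cathepsin W gene Ctsw and the receptor adaptor Trat1 were lower too. The leading lower genes were Rhoc, a small GTPase, Per3, a clock gene, Spry4, an inhibitor of growth factor signalling, Tnfsf10, the death ligand TRAIL, and B3galt5, a glycosyltransferase, together with Il13, Foxred2, St6galnac2, Zfp707 and Fgd5. Rhoc was at 12.7 CPM in the members of each library against 105 and 100.2 in the gates. The member levels of these 10 genes rest on 0 to 6 UMIs in each library.

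**Figure D3:**
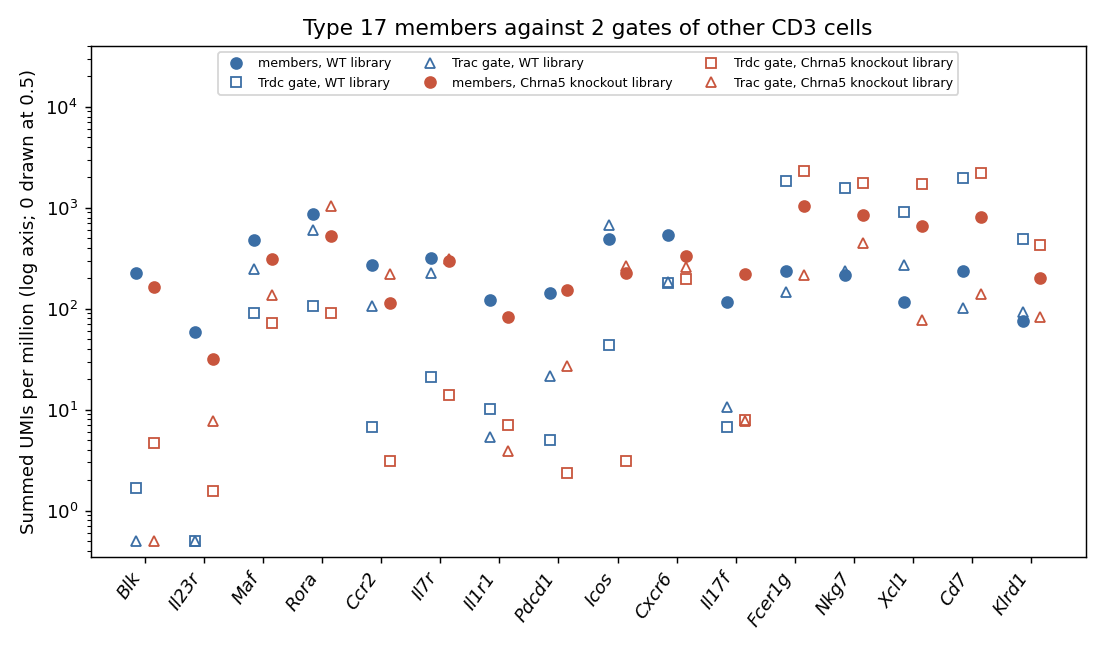
Summed CPM (log axis; 0 drawn at the lowest position) of 16 genes in members (filled circles), the Trdc gate (squares) and the Trac gate (triangles) of the WT (blue) and knockout (red) libraries. Blk, Il23r, Il1r1 and Pdcd1 stand highest in members of both libraries, and Fcer1g, Nkg7, Xcl1, Cd7 and Klrd1 in the Trdc gates.

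Against the Trac gate, Blk and Il17f were among the genes highest in members. Of 3004 measured genes, 88 (2.93%) were higher and 41 (1.36%) lower in both libraries, with median log2 ratios of 0.03 and 0.05. Of 15 measured genes of the type 17 transcription factor list, 3 were higher (Blk, Ikzf3 and Tox), 1 lower (Gata3) and 11 neither. Its median log2 ratios were 0.11 in the WT and -0.77 in the knockout library. Of 14 measured receptors, 1 was higher, the rule gene Cd163l1, and 0 were lower. Rora (ratios of 1.45 and 0.496), Il7r (1.43 and 0.953) and Ccr2 (2.52 and 0.512) were past the fold in neither direction. Tcrg-C1, the gamma constant chain, was at 635 CPM in WT members and 8.01 in the gate, and at 577 and 3.91 in the knockout. Trdv4 had 171 and 114 UMIs in members against 1 and 0 in the gates. As the gate was set to hold no Trdc, these receptor values are a description. Blk had 0 UMIs in both Trac gates, which makes it at least 28.3-fold higher in the WT and at least 14.1-fold in the knockout members, against a floor of 3 UMIs per gate. Il17f was 10.9 and 28.4 times higher. The other leading genes were Fermt2, Map1b, Col27a1, Ckb, Swap70 and Prf1. Fermt2 was in 15.9% of WT and 51.4% of knockout members, Map1b in 12.1% and 42.9%, and Col27a1 in 10.3% and 34.3%. Prf1 was in 14.0% and 37.1%, Swap70 in 16.8% and 34.3%, and Ckb in 36.4% and 25.7%. Fcer1g was in 15.0% and 45.7%. Without the members with Fcer1g, 52 genes were higher. Which members carried these leading genes was not tested.

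Among the genes lower in members than in the Trac gate, Ifng led. Ifng, the type 1 cytokine, had 1 and 0 UMIs in members against 63 and 126 in the gates. Ccl5, a chemokine of effector T cells, was at 38.1 CPM in WT members against 643, and at 0 against 1516 in the knockout. Gzma, Cd8b1, Il1rl1, Ms4a4b, Inpp4b, Dusp10 and the regulatory T cell genes Ctla4 and Tnfrsf4 completed the 10 leading lower genes. Ctla4 was at 38.1 against 251 CPM in the WT and 12.7 against 93.7 in the knockout library.

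Between genotypes, the members differed in epidermal T cell genes, in Gzmb, Ly6a, Samhd1 and Icos among others, and in genes carried by single cells. Here the fold was 1.5 in either direction, again with a counting interval clear of 1, among genes with at least 20 UMIs over both libraries. Of 4213 measured genes, 352 (8.36%) were higher and 244 (5.79%) lower in the knockout members, 59.1% of the 596 calls being higher. Scaling by trimmed means moved the knockout level by 0.14 (log2) and turned the split to 248 higher and 360 lower, 40.8% higher; median-of-ratios scaling, at 0.12, gave 252 and 337. The balance of directions over all genes is therefore not a result, and single genes are read only where they lie well past this shift.

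Of 16 dendritic epidermal T cell genes, 13 were measured, 9 were higher in the knockout members, 1 lower and 3 neither, and the median log2 ratio was 1.46 against -0.0025 for all measured genes. Fcer1g was at 235 CPM in WT and 1045 in knockout members, 4.45 times higher (3.48 to 5.71). Xcl1 was 5.66 times higher (4.05 to 8.00), Nkg7 3.96 (3.04 to 5.18), Cd7 3.40 (2.61 to 4.42) and Klrd1 2.66 (1.60 to 4.41). Nkg7 was detected in 20 of 107 WT and 19 of 35 knockout members, and Xcl1 in 10 and 14. The summed level of the whole list was 2469 CPM in WT and 6178 in knockout members, against 10765 and 13010 in the Trdc gates, and the part of these cells in the other genotype differences was tested only by leaving out members with Fcer1g. In the members without Fcer1g, 6 of these 16 genes were still measured, and 0 were higher and 1 lower. Since Fcer1g is on the list and the others are found mostly in cells that carry it, this count follows from leaving those cells out and is a description.

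The 10 genes with the highest ratio were Gzmc, Tnfsf11, Jade1, Rcc1l, Nap1l5, Xcl1, Serpinb6b, Mt4, Plscr1 and Fam3c. Gzmc, a granzyme, had 3 UMIs in WT members and 49 in knockout members, of which 1 cell held 65.3%; the ratio was 48.9 (15.8 to 245) and 25.5 (6.04 to 227) without the highest cell of each library. Tnfsf11, the cytokine RANKL, had 3 and 21 UMIs in 3 and 9 cells, a ratio of 21.0 (6.26 to 109.8). For Mt4, a metallothionein of differentiated keratinocytes, 1 knockout cell held 96.5% of the UMIs, and without the top cells its ratio was 0.399. In Jade1 1 cell held 78.8% of the knockout UMIs. The range of the ratios over these 10 genes was 5.24 to 48.9.

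The 10 genes with the lowest ratio fell into 2 kinds. For Krt79, H2-Ab1, H2-Eb1 and Vcan, 1 WT cell held 94.2%, 93.9%, 94.5% and 85.5% of the UMIs, and Sprr1b, Defb6 and Ly6g6c, genes of differentiating epithelium, had 68.1%, 69.8% and 60.0% in 1 cell. A WT member alone held 811 of the 1056 UMIs of the myeloid marker list in these cells, and 1 WT and 1 knockout member held 39.8% and 76.3% of the keratinocyte list. The part of doublets or free RNA in these cells was not tested; their doublet scores from Scrublet were 0.245, 0.0367 and 0.189.

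Gzmb, Ly6a and Samhd1 were different, since many WT cells carried them. Gzmb, the granzyme B gene (ENSMUSG00000015437, chr14:56258838-56262260), had 160 UMIs in 27 of 107 WT members and 1 UMI in 1 of 35 knockout members, 339 against 6.34 CPM, a ratio of 0.0187 with an upper bound of 0.106. Ly6a, the surface protein Sca-1 (chr15:74994877-74998031), had 70 UMIs in 26 cells and 1 UMI in 1 cell, with an upper bound of 0.246. Samhd1, a nucleotide hydrolase, had 53 UMIs in 33 cells and 1 UMI in 1 cell, with an upper bound of 0.329. In all 3, the highest WT cell held a small part of the UMIs, 15.6%, 18.6% and 11.3%.

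The same genes were read in the other T cells of each library. Gzmb was found in 3.91% of WT and 4.21% of knockout Trdc-gate cells and in 14.3% and 13.1% of Trac-gate cells, against 25.2% and 2.86% of members. Samhd1 was in 11.2% and 7.89% of the Trdc gate and 35.1% and 24.6% of the Trac gate, against 30.8% and 2.86% of members. Ly6a was lower in the knockout Trdc gate too, 28.5% against 9.21%, and stood at 45.5% and 37.7% in the Trac gate. Icos was lower in the knockout library in all 3 groups, at 64.5% and 31.4% of members, 5.59% and 1.05% of the Trdc gate and 66.2% and 34.4% of the Trac gate. Whether the members differed from the other gates in these ratios was not tested.

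Without the Fcer1g cells, no difference past counting error was found between the genotypes in 6 chosen type 17 genes outside the rule. Other listed genes did differ, with Il17f higher and Il2ra and Id2 lower in the same knockout cells (given below). Of 3244 measured genes, 206 (6.35%) were higher and 181 (5.58%) lower. Blk had a ratio of 0.893 (0.524 to 1.45), Maf 0.891 (0.624 to 1.24), Rora 0.842 (0.642 to 1.09), Cxcr6 0.824 (0.579 to 1.15), Il7r 1.35 (0.933 to 1.91) and Pdcd1 1.63 (0.969 to 2.66). Each of these intervals holds 1, which does not show equal levels. Rora, Maf and Cxcr6 had been lower over all members, at 0.595, 0.644 and 0.630; the mean over cells gave Maf 0.691, short of the fold. The transcription factor list had 5 of 18 measured genes lower over all members and 2 of 17 without Fcer1g. The receptor list had 1 higher and 5 lower of 22, and 0 and 3 of 20. Cd163l1, a gene of the rule, is 1 of these 5 and a description only. Without Fcer1g it was at 617 CPM in WT and 366 in knockout members.

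Gzmb, Ly6a, Icos, Ltb, Il2ra and Id2 were lower in the knockout members both over all and without Fcer1g. As means over all member cells, Il2ra (0.687) and Id2 (0.7002) fell short of the fold. Gzmb had 144 UMIs in 26 of 91 WT cells and 1 UMI in 1 of 19 knockout cells, and Ly6a 66 UMIs in 24 cells against 0, a ratio of at most 0.213 against a floor of 3 UMIs. Icos had a ratio of 0.516 (0.327 to 0.782), Ltb 0.406 (0.232 to 0.668), Il2ra 0.433 (0.211 to 0.803) and Id2, an inhibitor of E proteins, 0.458 (0.297 to 0.682). Areg, a growth factor for epithelium, was at 1648 CPM in the WT and 744 in the knockout cells, whereas over all members it was at 1570 and 1863, not past the fold. The receptor constant chains Tcrg-C1, Trbc1 and Trbc2 were lower as well in these cells, at ratios from 0.388 to 0.595, though past the fold in neither direction over all members. The part of the remaining Cd7 and Nkg7 cells in these ratios was not tested.

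Il17f and Nr4a2 were higher in the knockout cells without Fcer1g. Il17f had 54 UMIs in 10 WT cells and 27 UMIs in 4 knockout cells, a ratio of 2.34 (1.42 to 3.79), with 46.3% and 48.1% of the UMIs in 1 cell. Over all members its ratio was 1.91 (1.21 to 2.96), and 1.40 as a mean over cells, under the fold. The immediate early receptor Nr4a2 had a ratio of 2.28 (1.22 to 4.11), with 37 UMIs in 25 cells and 18 UMIs in 9. With 19 knockout cells, both ratios rest on few cells.

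**Figure D4:**
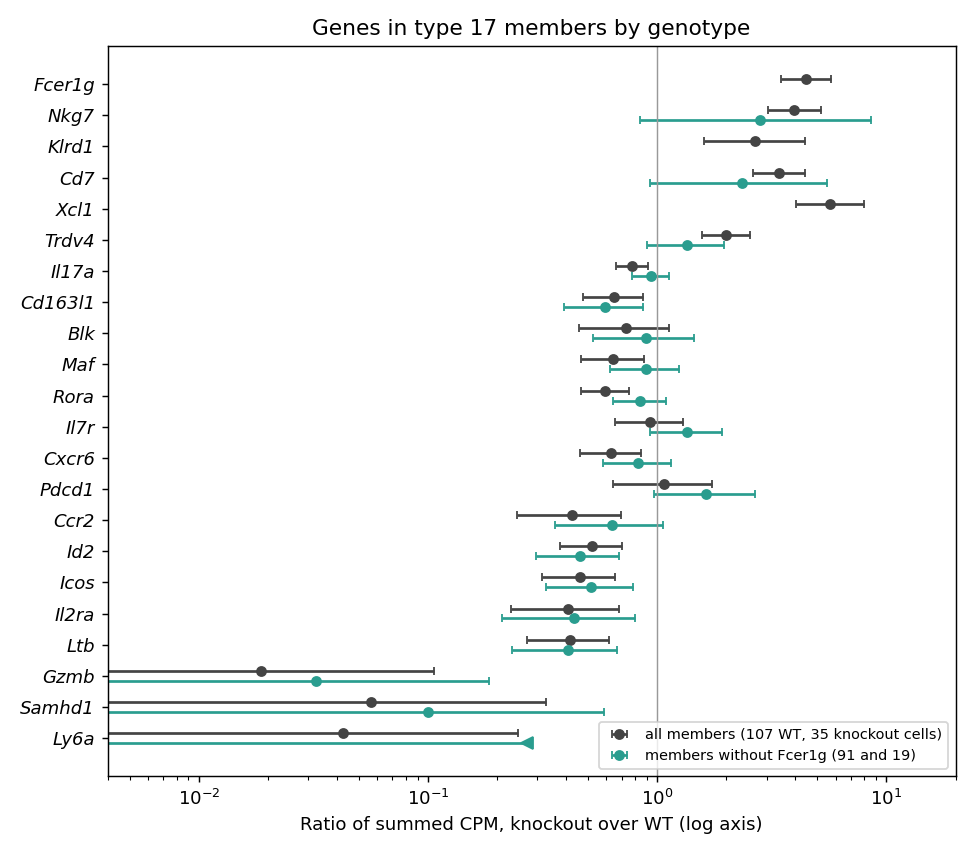
Ratio of summed CPM, knockout over WT (log axis), with 95% counting intervals, for all members (grey) and for members without Fcer1g (green); Ly6a without Fcer1g is drawn as an upper bound because the knockout cells had 0 UMIs. Fcer1g, Nkg7, Cd7 and Xcl1 lie to the right over all members, the intervals of Blk, Maf and Rora hold 1 without Fcer1g cells (Il17a and Cd163l1 are drawn as genes of the rule), and Icos, Il2ra, Ltb, Gzmb, Samhd1 and Ly6a lie to the left in both.

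Interferon response genes were thinly measured. Of 22 listed, 6 were measured over all members, 3 were lower in the knockout and 0 higher, with a median log2 ratio of -1.83. Over all measured genes, 5.79% were lower and 8.36% higher. The summed level of the list was lower in the knockout library in the other T cells too. It was at 774 and 279 CPM in WT and knockout members, 774 and 539 in the Trdc gates, and 1852 and 926 in the Trac gates. Ifi27l2a had 108 UMIs in 30 WT members and 3 UMIs in 2 knockout members, and Irf7 22 and 1 UMIs. These knockout values rest on 1 to 3 UMIs.

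Receptors for acetylcholine were not measurable in the members. None of 18 cholinergic genes reached 20 UMIs: Chrna9 had 1 UMI in the WT, Chrnb1 1 in each library, and the other 16 genes, Chrna5 among them, had 0. Of 12 adrenergic, neuropeptide and prostaglandin receptor genes, 4 were measured; Ramp3, a co-receptor for calcitonin-family peptides, was 1.60 times higher (1.06 to 2.37) and 0 were lower. The Ramp3 ratio lost the fold under both other scalings and was 0.924 in thinned cells.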

How the data were processed

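The deposited matrices hold UMI counts per gene and barcode, whole numbers without normalization, per the file headers. The authors used Cell Ranger 3.0.2 with mm10, and Seurat 3.0 is also listed, per the submitters' processing notes; the file header gives software version 3.1.0. Filtering before deposit is not described in the labels. Barcodes with at least 500 UMIs, 300 genes and at most 20% mitochondrial UMIs were kept, 10160 of 10741 and 9308 of 9696, with 138844057 and 124959162 UMIs. UMIs were summed over cells and scaled to CPM of the group's total. Ratios carry exact conditional binomial intervals and shares exact Clopper-Pearson intervals, which cover counting error only. Scrublet's automatic thresholds marked 0.0295% and 1.19% of cells, so it did not work as a caller in the WT library; doublets were kept, and removing scores above 0.25 was an alternative. Members and gene lists were chosen with earlier results of these data known. Named genes were list genes by role and the 10 highest and 10 lowest ratios past the fold, leaving out mitochondrial, ribosomal, haemoglobin, predicted and rule genes. The counting of calls was tested on simulated data. Those counts were drawn per library without spread between cells, so the test does not cover genes carried by single cells. Python 3.11.15, numpy 2.4.6, pandas 2.3.3, scipy 1.17.1, scanpy 1.11.5 and matplotlib 3.10.9 were used. Some genes of the lists are not reported here.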

Additional observations from a re-analysis of the deposited data

Results flagged for a closer look

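For 7 genes, type 17 members lay past the fold on opposite sides of the Trdc gate in the 2 libraries; the difference between the libraries was not tested. Member over gate, the ratio was 0.219 in the WT and 3.83 in the knockout library for Dtl, a cell cycle ubiquitin ligase adaptor, and 0.210 and 2.83 for Agpat2, a lipid synthesis enzyme. Jade1 had 0.301 and 4.86, with 78.8% of its knockout UMIs in 1 cell, and Osgin2 had 0.454 and 3.31, with 72.2% in 1 cell. Zswim8 had 0.475 and 2.53, and Rrn3, a factor of ribosomal RNA transcription, 0.441 and 2.70. Vcan, a matrix proteoglycan, went the other way at 2.13 and 0.0482, with 85.5% of the WT UMIs in 1 member. The smaller counts behind these ratios were 1 to 11 UMIs.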

How the results depend on the processing

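The share ratio of 0.353 lay between 0.321 and 0.359 under the other alternatives and was 0.225 for members without Fcer1g, an alternative chosen after seeing the data, as were thinning before the rule and leaving out each gene's top cell. For the genotype comparison, the higher and lower genes numbered 206 and 181 without Fcer1g, 81 and 49 in cells thinned to 1000 UMIs, 215 and 150 with a minimum of 50 UMIs, and 192 and 389 without the top cell; of the original calls, 188 of 352 higher and 205 of 244 lower were kept without the top cell, and 114 and 95 without Fcer1g. Against the Trdc gate, lower genes numbered 91 for members with Cd163l1 (at least 1 UMI, at any Il17a count) and 315 without Fcer1g. Thinning gave 43 higher and 46 lower, and 70 were higher with a minimum of 50 UMIs. Against the Trac gate, 52 were higher without Fcer1g, thinning gave 20 higher and 9 lower, and a minimum of 50 UMIs gave 30 and 13. Thinning and the higher minimum leave fewer UMIs or genes to count; the cause of the other moves was not tested. Mt4 changed sign to -2.91 (log2) for members with Cd163l1 and -1.32 without the top cell. In thinned cells Cd163l1 changed to 0.13 and Ramp3 to -0.11 between genotypes, and Tcf7 to 0.31 in the knockout library against the Trdc gate. Against that gate Il2ra was at -0.18 in the knockout library for members with Cd163l1. Of 1899 values of named genes over all alternatives, 1615 kept their direction and call, 276 lost the call, 2 gained it and 6 changed sign. The mean over cells gave gene values only, with no interval, and 12 of 178 fell short of the fold. No paired analysis was possible because each genotype has 1 library. Few knockout members, and few UMIs in each, limit every ratio.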
